A study of Mus musculus with 4 samples.

Results

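The chromatin at 1308 gene promoters held a higher place in CTCF-K20R than in WT embryoid bodies, when the promoters of each library were put in order by the strength of their ATAC-seq peak. These 1308 promoters were selected on the ranks themselves. For each autosomal protein-coding gene the peak with the highest −log10 p that reached within 1000 bp of the start of transcription (TSS) was taken in each library, the genes with such a peak in all 4 libraries were ranked from 0 (weakest) to 100 (strongest) within each library, and a promoter was kept where both K20R ranks lay above both WT ranks and the mean K20R rank was at least 10 points above the mean WT rank. Of 20807 autosomal protein-coding genes, 13478 had a peak in all 4 libraries, and 13017 remained after 2 stretches of chromosomes 8 and 2 were left out. The promoters that gained rank were 10.0% of these. By the mirrored rule 1543 promoters (11.9%) lost rank. Without the size threshold, 2829 promoters (21.7%) had both K20R ranks above both WT ranks and 3103 (23.8%) had both below. Since the ranks chose the promoters, the differences below describe them and carry no test.

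ATAC-seq marks open chromatin by letting a transposase insert adapters where DNA is exposed. The libraries came from embryoid bodies on day 4, which are aggregates of differentiating cells grown in hanging drops from the mouse embryonic stem cell line E14Tg2A. WT was compared with CTCF-K20R, in which editing with CRISPR/Cas9 had changed lysine 20 of CTCF to arginine, with 2 libraries of each genotype. The edited cells were colonies chosen by drug selection, the parent cells had been kept on mouse fibroblast feeders, and the methods call the replicates biological without saying in what they were separate. In bulk material like this, a higher share of cells with an open promoter and a more open promoter in each cell cannot be told apart. Ranks within a library are also relative, so a promoter can gain rank because others weakened, without opening more itself. The paper reports mainly reduced accessibility in the mutant cells at this stage. Whether the promoters that gained rank became more open in absolute terms was not tested.

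A promoter is the stretch around the TSS where general transcription factors and RNA polymerase II assemble. Most promoters of widely used genes lie in CpG islands and stay open in nearly all cell types, whereas promoters of tissue-specific genes open with their lineage. CTCF is a zinc finger protein that binds a long motif, anchors chromatin loops with cohesin and also occupies a minority of promoters.

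Promoters that the results turn on are shown as 300 bases, 250 before and 50 from the TSS onward, read from the mm10 genome (GRCm38.p6) 5′ to 3′ on the gene's strand. Capitals mark matches on either strand to TATAAA (the TATA box), to CCAAT (bound by NF-Y), to GGGCGG (bound by SP and KLF factors), to CACGTG (an E-box) and to GCGGGA (the core of E2F sites), of which the last can overlap GGGCGG. Mal2 and Deptor are shown for their large differences, and Dmc1, Ddx4 and Sycp3 as the leading members of the germline group.
Mal2 promoter, chr15:54570942-54571241, + strand: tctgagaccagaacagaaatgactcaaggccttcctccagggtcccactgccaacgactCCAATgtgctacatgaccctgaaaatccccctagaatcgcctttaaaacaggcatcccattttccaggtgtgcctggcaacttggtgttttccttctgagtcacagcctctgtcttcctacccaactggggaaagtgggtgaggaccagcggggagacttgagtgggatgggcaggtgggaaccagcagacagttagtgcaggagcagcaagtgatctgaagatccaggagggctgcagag
Deptor promoter, chr15:55112067-55112366, + strand: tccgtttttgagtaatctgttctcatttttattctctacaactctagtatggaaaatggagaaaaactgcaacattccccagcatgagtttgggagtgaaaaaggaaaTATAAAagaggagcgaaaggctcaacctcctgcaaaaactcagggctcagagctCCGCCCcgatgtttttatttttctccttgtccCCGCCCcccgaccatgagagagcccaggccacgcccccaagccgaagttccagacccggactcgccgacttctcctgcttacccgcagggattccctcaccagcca
Dmc1 promoter, chr15:79605060-79605359, - strand: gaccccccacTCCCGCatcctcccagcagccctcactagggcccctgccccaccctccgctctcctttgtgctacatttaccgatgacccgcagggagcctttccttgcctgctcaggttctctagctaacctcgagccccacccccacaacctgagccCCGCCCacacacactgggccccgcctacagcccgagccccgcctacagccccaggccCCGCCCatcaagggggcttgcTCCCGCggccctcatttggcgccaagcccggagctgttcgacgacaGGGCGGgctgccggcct
Ddx4 promoter, chr13:112652426-112652725, - strand: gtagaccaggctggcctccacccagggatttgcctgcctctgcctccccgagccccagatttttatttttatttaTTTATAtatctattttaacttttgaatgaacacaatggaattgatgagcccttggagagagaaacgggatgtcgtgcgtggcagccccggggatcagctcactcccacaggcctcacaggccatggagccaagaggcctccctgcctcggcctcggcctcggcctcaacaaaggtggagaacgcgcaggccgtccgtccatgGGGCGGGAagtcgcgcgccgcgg
Sycp3 promoter, chr10:88459319-88459618, + strand: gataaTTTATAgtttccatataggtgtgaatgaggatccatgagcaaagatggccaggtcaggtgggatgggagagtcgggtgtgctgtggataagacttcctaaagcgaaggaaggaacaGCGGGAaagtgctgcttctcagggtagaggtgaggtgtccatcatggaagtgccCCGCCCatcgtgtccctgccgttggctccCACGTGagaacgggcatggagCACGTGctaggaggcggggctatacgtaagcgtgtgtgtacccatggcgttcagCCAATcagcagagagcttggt
Mal2 had no TATA box, no GGGCGG and a CpG ratio (observed over expected CpG dinucleotides) of only 0.137 in the bases shown. The CpG ratios of the other promoters shown lay between 0.571 and 0.714. In every library the summits of Mal2, Deptor and Ddx4 lay downstream of the bases shown. The CpG ratio around those summits was not computed, so whether any of these promoters is a CpG island was not tested. All 3 germline promoters shown, which were picked among gaining members, held GCGGGA, and Sycp3 also had 2 E-boxes. Over all ranked promoters, GCGGGA was found in 35.6% and CACGTG in 9.94%. GCGGGA was added to the motifs after the values had been seen.

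The size of the gain varied widely. The median difference in mean rank was 14.2 points, with an upper quartile of 18.1 points and a highest value of 53.2 points. The difference reached 20 points in 237 promoters, 30 points in 32 and 40 points in 6. In 444 promoters the lowest K20R rank was at least 10 points above the highest WT rank. Replicates of the same genotype differed at these promoters by a median of 5.81 points in WT and 5.68 points in K20R, against 5.58 and 4.99 points over all ranked promoters. The members just inside the threshold were Kcnip2, Dnah6 and Slc35f3, all with a difference of 10.0 points. Just outside it were Rabgap1l, which also rounds to 10.0 points, Timm44 with 9.98 points and Snx19 with 9.97 points.

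Gains began mostly from low and middle places. The median of the mean rank was 38.6 in WT and 54.8 in K20R, and 330 promoters moved from below 50 to above 50. Of promoters with a mean WT rank under 10, 9.02% gained rank, and this share was between 13.2% and 15.2% in each step of 10 points from 10 to 60. It fell to 6.71% between 70 and 80 and to 1.37% between 80 and 90, and a gain of 10 points is not possible above 90. In the same way a loss of 10 points is not possible from a mean WT rank under 10. The 5 members with the highest K20R ranks were Per2, the pair Ccdc159 and Tmem205, Actr2 and Tfrc. Per2, a repressor of the circadian clock, had ranks of 84.2 and 86.4 in WT, against 95.8 and 99.3 in K20R. Tfrc, the receptor that takes up iron-loaded transferrin, had 85.3 and 83.4 in WT, against 93.7 and 96.2 in K20R. By fold their differences were 51.3 points for Per2 and 16.8 points for Tfrc, instead of 12.2 and 10.6 points, and by pileup that of Per2 was 2.10 points.

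The largest difference was that of Mal2, which encodes a membrane protein of transcytosis. Its promoter peak ranked at 13.9 and 22.7 in WT but at 71.0 and 72.1 in K20R, a difference of 53.2 points. The −log10 p at its summit was 19.3 and 41.4 in WT, against 68.2 and 117 in K20R. By fold over the local background, which was 0.86 higher in K20R on the centred log2 scale, the difference was 34.9 points. That both K20R ranks lay above both WT ranks was required by the rule for every member. The K20R replicates of Mal2 lay closer to each other than the WT replicates.

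**Figure D1:**
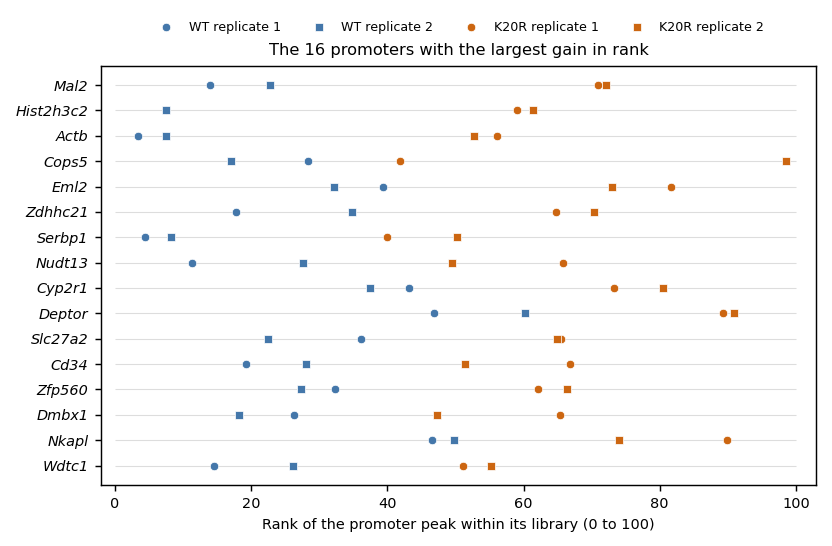
Ranks of the promoter peak within each library (0 to 100, x axis) for the 16 promoters with the largest difference (y axis, from Mal2 at 53.2 points to Wdtc1 at 32.8 points). Blue points are WT and orange points K20R, circles are replicate 1 and squares replicate 2. The K20R replicates lie farthest apart at Cops5 (41.8 and 98.6), followed by Dmbx1 (65.3 and 47.3).

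Hist2h3c2, a replication-dependent gene of histone H3, followed with 7.52 and 7.58 in WT, against 59.1 and 61.4 in K20R. Its strongest WT summits lay 1471 and 1758 bp downstream of the TSS and its K20R summits 680 and 701 bp downstream. Histone genes have near-identical copies, so reads of this gene could have been shared with them or lost in mapping, and its value is uncertain.

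Actb, which encodes cytoplasmic beta-actin and often serves as a reference gene, ranked at 3.36 and 7.52 in WT but at 56.1 and 52.7 in K20R. At its promoter the recovered summit pileup, the number of overlapping fragments at the summit, was 70 and 102 in WT, against 138 and 207 in K20R. The K20R summits lay 817 bp downstream of the TSS, in the gene. WT replicate 1 had its summit at 815 bp, and in WT replicate 2 a peak at −58 bp (−log10 p 22.1) was listed apart from a weaker one at 738 bp (−log10 p 11.0). A peak farther down, with summits between 3876 and 4049 bp from the TSS, had a −log10 p of 39.9 and 47.3 in WT, against 13.1 and 19.8 in K20R. The front of the gene and the region behind its end thus differed in opposite directions. The local background at the Actb promoter was high in every library, between 26.2 and 36.1 fragments, and by fold over that background the difference in rank was 10.8 points instead of 49.0.

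Further members with large differences belong to many kinds of genes. Eml2, for a microtubule-associated protein, ranked at 39.4 and 32.2 in WT but at 81.6 and 73.0 in K20R. Zdhhc21, for a palmitoyltransferase, ranked at 17.8 and 34.8 in WT but at 64.8 and 70.4 in K20R. Cyp2r1, for a vitamin D 25-hydroxylase, ranked at 43.2 and 37.5 in WT but at 73.3 and 80.5 in K20R. In each of these genes the groups were at least 30 points apart between the nearest libraries. Ranked by fold, the differences of Eml2 and Cyp2r1 were 19.3 and 18 points instead of 41.5 and 36.6, and ranked by pileup that of Eml2 was 24.4 points. Cd34, a surface protein of blood progenitors and endothelium, ranked at 28.1 or lower in WT but at 66.9 and 51.4 in K20R, although none of the 7 ranked genes of a hemato-endothelial list gained or lost rank. Serbp1 (4.44 and 8.23 in WT, 39.9 and 50.2 in K20R) was measured at the outermost annotated start of the gene, and with all its protein-coding starts allowed its difference was −4.88 points. Wdtc1 likewise fell from 32.8 to 0.77 points when all its starts were allowed.

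For 11 of the 1308 promoters the peaks chosen in the 4 libraries did not all overlap one another, and for those the rule compared different peaks. Cops5, for a subunit of the COP9 signalosome, ranked at 28.3 and 17.1 in WT but at 41.8 and 98.6 in K20R. A strong peak upstream of Cops5 ended at position −974 from the TSS in K20R replicate 2, inside the window, and at −1009 to −1280 in the other 3 libraries, where its −log10 p was between 112 and 231. With summits required to lie within 1000 bp the difference of Cops5 was 7.2 points. Rps10, a ribosomal protein gene, ranked at 0.12 or lower in 3 libraries and at 33.1 in K20R replicate 2, where the chosen peak had its summit 1401 bp from the TSS. In the other 1297 members (99.2%, against 98.5% of all ranked promoters) the chosen peaks overlapped in all 4 libraries. The 4 summits lay within 100 bp of each other in 754 of the 1308 (57.6%, against 56.1% of all ranked promoters).

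The rank rests on the −log10 p, which grows both with the signal at the summit and with a lower local background, so both were computed back from the listed fold and p and centred on the median of all ranked promoters in each library. The summit pileup was higher in both K20R libraries than in both WT libraries at 1158 of 1308 members (88.5%), against 23.2% of all ranked promoters. The median difference was 0.32 on the log2 scale at the members and 0.00 over all. The local background was also higher in both K20R libraries at 591 members (45.2%, against 23.9% over all) and lower in both at 213 (16.3%, against 25.3%). These measures enter the p, so they describe the gains and are not independent of the rule. Being centred within each library, they are relative to its other promoters, as the ranks are. At 10 members the mean centred pileup was not higher in K20R and the background was lower. Mesp1, a transcription factor of early cardiac mesoderm, was one of them. It ranked at 3.24 and 3.22 in WT but at 17.2 and 20.7 in K20R, with pileups of 50 and 71 in WT, against 47 and 72 in K20R but backgrounds of 18.5 and 24.8 in WT, against 7.29 and 7.67 in K20R. Its difference was 24.9 points by fold and −5.63 points by pileup, instead of 15.7 points.

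**Figure D2:**
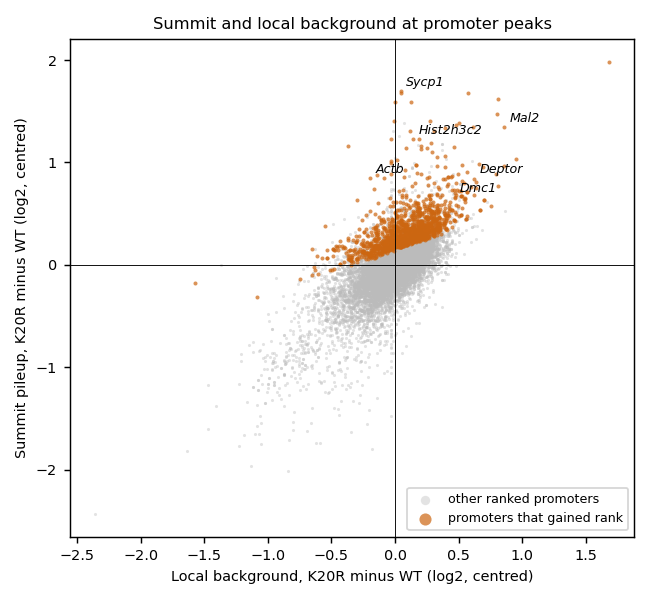
Difference between K20R and WT in local background (x axis) and in summit pileup (y axis), both in log2 units centred on the median of each library, for the 1308 promoters that gained rank (orange) and the other ranked promoters (grey), of 13017 in all. Most orange points lie above 0 on the y axis (median 0.32), on both sides of 0 on the x axis.

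Members were then grouped by gene lists, and 50 lists with at least 8 ranked genes were counted. The germline list had the highest share, with 7 of 12 ranked genes gaining and 1 losing rank and a median difference of 11.9 points, against 10.0% gaining and a median of −0.20 points over all ranked promoters. No other list had a share over 26.3%. Apart from Dmc1, Dazl and Rec8, the ranked germline genes had a mean WT rank under 10, from where a loss of 10 points is not possible. The small number of losses in this list was thus largely set in advance. Of all promoters with a mean WT rank under 10, 9.02% gained and none lost rank. The 7 genes were Dmc1, Ddx4, Sycp3, Sycp1, Smc1b, Mael and Slc25a31, which act in meiosis, in piRNA defence or in germ cell metabolism. In somatic and embryonic stem cells such promoters are usually silenced by DNA methylation and by the repressor complex PRC1.6, whose subunits bind E-boxes and E2F sites.

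Dmc1, the recombinase of meiotic strand exchange, ranked at 42.8 and 39.7 in WT but at 69.7 and 70.5 in K20R. Ddx4, an RNA helicase of germ cells, ranked at 5.06 and 3.02 in WT but at 34.1 and 25.0 in K20R. Sycp3, a structural protein of the synaptonemal complex, ranked at 3.97 and 6.62 in WT but at 32.3 and 27.7 in K20R. Apart from Dmc1, all of these genes began in the lowest 7 of 100 places in both WT libraries. Sycp1, the other structural protein of that complex, had pileups of 11 and 10 in WT, against 36 and 45 in K20R, a centred log2 difference of 1.70 with a background difference of 0.04. Its WT backgrounds of 2.76 and 2.71 were the lowest among all ranked promoters, so the small background difference says little. The WT backgrounds of Ddx4, Smc1b, Mael and Slc25a31 were at the same lowest values. Slc25a31, a mitochondrial carrier of male germ cells, had pileups of 12 and 10 in WT, against 33 and 35 in K20R. Smc1b, a meiotic cohesin subunit, shared its peaks with Ribc2 and ranked at 3.58 and 1.90 in WT but at 17.7 and 14.8 in K20R. Mael, of the piRNA pathway, ranked at 5.80 and 4.84 in WT but at 11.7 and 23.4 in K20R. In K20R these peaks still ranked below 35 of 100, with the exception of Dmc1.

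**Figure D3:**
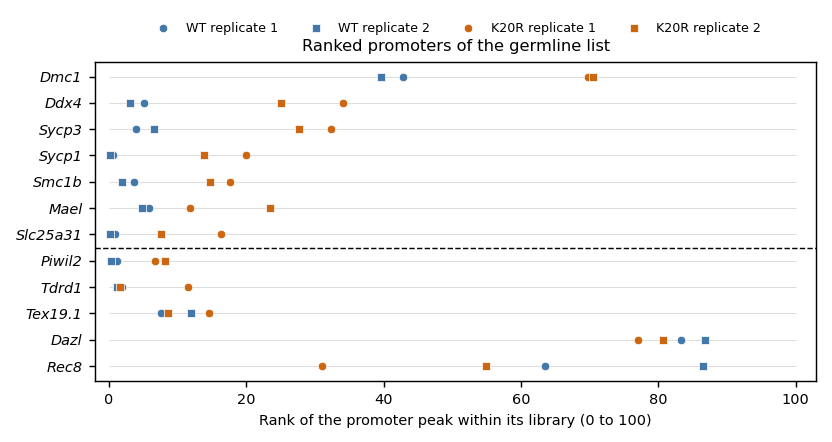
Ranks within each library (x axis, 0 to 100) of the 12 ranked promoters of the germline list (y axis), ordered by their difference, with WT in blue, K20R in orange, circles for replicate 1 and squares for replicate 2. The 7 promoters above the dashed line gained rank, 6 of them from ranks of 6.62 or lower in both WT libraries, and Rec8 at the bottom lost rank.

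The 5 ranked germline genes that did not gain went different ways. Piwil2 and Tdrd1 had differences of 6.77 and 5.02 points and Tex19.1 of 1.89 points. Dazl, an RNA-binding factor of germ cells, had −6.24 points from a high WT rank. Rec8, a meiotic cohesin subunit on chromosome 14, had 63.5 and 86.5 in WT, against 31.1 and 54.9 in K20R. On chromosome 14 as a whole, 40.4% of ranked promoters lost rank and 6.74% gained. The germline count depended on the measure. Ranked by fold it was 8 of 12, and with either K20R library left out it was 6 of 12. Ranked by the pileup alone it was 3 of 12. For Ddx4 the difference was 54.9 points by fold and 14.0 points by pileup, and for Dmc1 it was 16.4 points by fold, instead of 25.5 and 28.9 points.

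A longer list of meiotic and other germ cell genes was written after these values had been seen, and is given only as a description. Of its 40 ranked genes 6 gained rank (15.0%) and 3 lost rank, with a median difference of 1.32 points, close to the background. The 6 were Hfm1, Npm2, Tdrd5, Mei4, D1Pas1 and Hsf2bp. A further 5 members known for roles in germ cells, Nkapl, Rbmxl2, Msh4, Sox30 and Psma8, were left out of that list because their gain was already known. Nkapl had the largest value of them, with ranks of 46.6 and 49.9 in WT, against 89.9 and 74.1 in K20R.

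The motif GCGGGA was also added after the values had been seen. It occurred in all 7 germline promoters that gained rank and in 1 of the 5 that did not, against 35.6% of all ranked promoters. CACGTG occurred in 4 of the 7 and in 1 of the 5, against 9.94% of all. Over all germ cell genes named or listed here, including the 5 picked for their gain, GCGGGA was in 12 of 18 gaining promoters and in 14 of 39 others. These counts are small, were looked at beside 20 other motifs and describe the letters in the window only.

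Pluripotency genes gave 5 gaining promoters of 19 ranked (26.3%) and 3 losing ones, with a list median of −3.78 points, so the list as a whole did not lean upward. Zfp42, a marker of naive stem cells, ranked at 33.1 and 47.8 in WT but at 62.0 and 69.8 in K20R. Pou5f1, which encodes the core pluripotency factor OCT4, ranked at 29.0 and 29.6 in WT but at 49.4 and 54.7 in K20R. The Pou5f1 summits lay upstream, at −885 and −869 bp from the TSS in WT and at −1038 and −859 bp in K20R. With summits required within 1 kb, 14 genes of the list were ranked, of which 4 gained and 2 lost rank. Dppa5a, an RNA-binding protein of stem cells, ranked at 13.3 and 18.7 in WT but at 34.9 and 29.7 in K20R. The local background rose with the summit at Zfp42 (0.62 on the centred log2 scale) and at Dppa5a (0.81). Ranked by fold over that background, 1 of the 19 genes gained rank, and the differences of Zfp42, Pou5f1 and Dppa5a were 6.60, 4.10 and −3.36 points instead of 25.5, 22.8 and 16.3 points.

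For lineage genes the counts were small, and are to be read against 10.0% gaining and 11.9% losing over all ranked promoters. Early mesoderm genes gave 1 gaining promoter of 27 ranked (Mesp1) and 5 losing ones, and endoderm genes 1 of 12 (Prdm1, a transcriptional repressor) and 2 losing ones. None of 16 cardiac, 23 neuroectoderm or 12 fibroblast genes gained rank, while 4, 4 and 3 of them lost rank. The fibroblast list is the marker list of the feeder cells, and all 4 libraries had promoter peaks at 13 or 14 of its 18 genes. Over all 20807 autosomal protein-coding genes, 13839 to 14059 had a promoter peak in each library. Whether feeder cells contributed to the libraries was not tested. Of the early mesoderm list 27 or 28 of 29 genes had a promoter peak in each library, and of the 26 pluripotency genes 21 to 24 had one.

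Several groups of widely used genes had shares above the background by rank of −log10 p, and these counts were lower by fold. Proteasome subunits gave 8 gaining promoters of 34 (23.5%) and 4 losing ones, led by Psmb4 with 16.4 and 15.0 in WT, against 40.9 and 39.0 in K20R. Ranked by fold they gave 4 gaining and 6 losing promoters. Genes of the ATF4 and amino acid response gave 4 of 17 and none losing, namely Ddit3, Xbp1, Slc7a5 and Slc3a2, and by fold none gaining and 2 losing. Without K20R replicate 1 they gave 2 gaining and 1 losing, and without K20R replicate 2 they gave 5 gaining and 3 losing. Ddit3, a transcription factor of the stress response, shares its peak with Mbd6 and ranked at 46.7 and 59.8 in WT but at 76.9 and 77.0 in K20R, and its difference of 23.7 points was 9.37 points by fold and 6.41 points by pileup. Tubulin genes, with the tubulin complex genes their name pattern takes in, gave 5 of 20 and 2 losing ones, and by fold 3 and 2. Tubb3, a tubulin of neurons, ranked at 14.7 and 14.6 in WT but at 32.9 and 47.2 in K20R, with a difference of 25.4 points that was 14.1 points by fold. Replication-dependent histone genes gave 12 of 55 (21.8%) and 5 losing ones, by fold 2 gaining and 12 losing, and by pileup 23 gaining and none losing. Without WT replicate 1 the histone count was 26 and without K20R replicate 1 it was 10, and without K20R replicate 1 the tubulin count was 10. Genes on a shared peak were counted separately. With 1 gene per shared peak, tubulins gave 3 of 16, the ATF4 list 3 of 15, histones 9 of 36 and proteasome subunits 8 of 29. The proteasome members that gained include Psma8, named above for its role in germ cells.

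**Figure D4:**
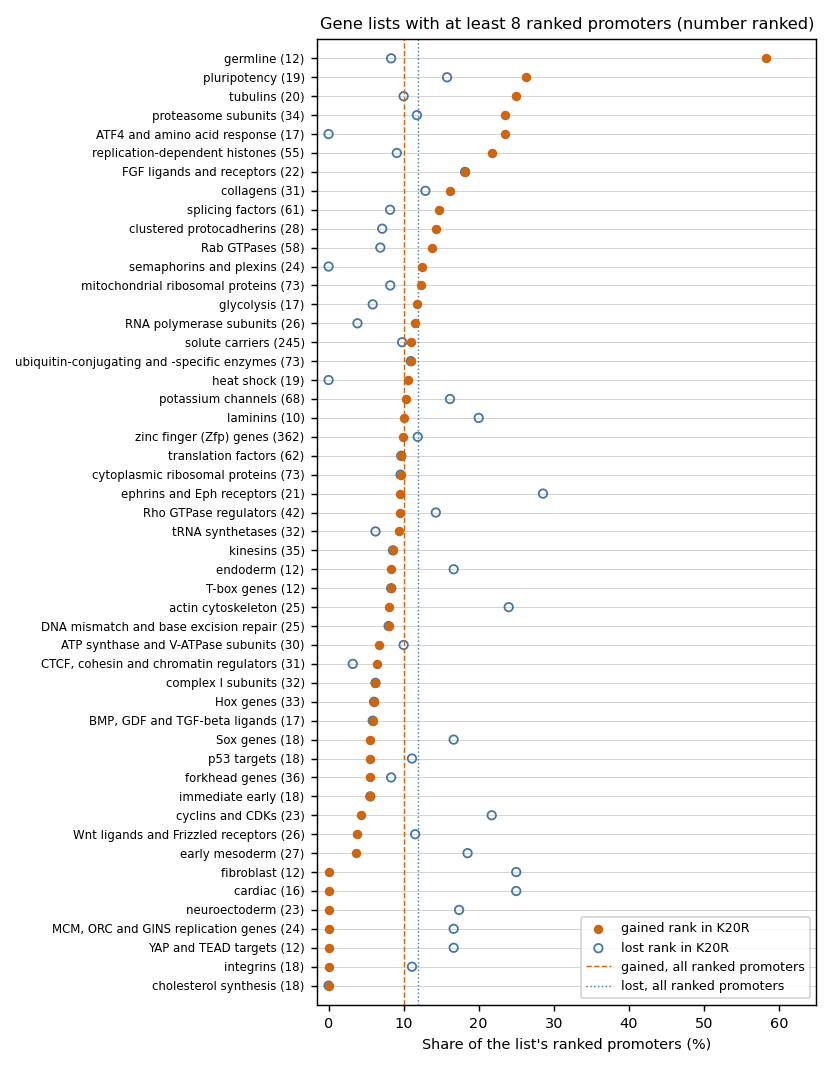
Share of ranked promoters in each of 50 gene lists (y axis, number ranked in brackets) that gained rank (filled orange) or lost rank (open blue) in K20R, in percent (x axis). The dashed and dotted lines are the shares over all ranked promoters (10.0% and 11.9%), and the germline list (7 of 12) lies farthest to the right.

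Most other lists lay near the background. Cytoplasmic ribosomal proteins gave 7 gaining and 7 losing promoters of 73, and mitochondrial ribosomal proteins 9 and 6 of 73. Zinc finger genes named Zfp, Zkscan, Zscan or Zbtb gave 36 and 43 of 362 and solute carriers 27 and 24 of 245. Splicing factors gave 9 and 5 of 61 and Rab GTPases 8 and 4 of 58. No promoter of the 18 cholesterol synthesis genes, the 18 integrins or the 24 MCM, ORC and GINS replication genes gained rank. Among regulators of chromatin, CTCF and cohesin, 2 of 31 did: Ep300, an acetyltransferase related to CBP, with 39.5 and 40.6 in WT, against 61.5 and 43.1 in K20R, and Yy1, a looping factor, with 86.8 and 65.6 in WT, against 88.2 and 88.2 in K20R. The gap between the WT replicates of Yy1 and between the K20R replicates of Ep300 was larger than the gap between the nearest libraries of the 2 genotypes.

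The sequence features of the promoters were close to those of all ranked promoters. The median CpG ratio was 0.740 at the members and 0.738 over all, and 14.8% of the members and 12.7% of all had a GC content under 50%. In classes of GC content, the share that gained rank was between 9.35% and 12.9% with no order. GGGCGG was found in 63.7% of members and 62.5% of all, CCAAT in 34.3% and 37.9%, CCGGAAG (an ETS site) in 15.4% and 15.7%, and the NRF1 motif in 14.4% and 12.4%. TATAAA was found in 9.56% of members and 7.08% of all, and in 6.61% of the promoters that lost rank. The CTCF motif was found in 16 members (1.22%) and in 0.81% of all.

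Members were spread over all 19 autosomes, from 6.74% of ranked promoters on chromosome 14 to 13.3% on chromosome 8. There were 1190 distinct sets of peaks among the 1308 genes, since neighbouring genes can share a peak. A few neighbourhoods held many members. Of 14 ranked genes in the 3194541 bp from Med30 to Sntb1 on chromosome 15 (chr15:52712408-55906949), a stretch delimited after its values were seen, 8 gained rank and none lost rank. These 8 genes lie on 7 sets of peaks. Mal2 and Deptor, which encodes an inhibitor of the mTOR kinase, lie in this stretch. Deptor ranked at 46.9 and 60.2 in WT but at 89.3 and 90.8 in K20R, a difference of 36.6 points that was 17.3 points by fold. Sntb1, a syntrophin gene at its end, ranked at 11.6 and 17.3 in WT but at 40.6 and 52.2 in K20R.

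Not only the summits but also the local backgrounds were higher in K20R along this stretch. The background difference was above 0 at all 14 genes, with a median of 0.48 and a range of 0.21 to 0.86 in centred log2 units, and the pileup difference was above 0 at 13 of them, all but Tnfrsf11b. Of 28 distal regions in the stretch with a peak in all 4 libraries, 26 had a higher centred pileup in K20R, with a median difference of 0.53. Before Med30, the background differences were 0.03 at Aard, the nearest ranked gene, 0.26 at Rad21, 0.16 at Utp23 and −0.08 at Eif3h. The pileup differences there were 0.11, 0.15, −0.01 and −0.03. At Has2, the next ranked gene beyond Sntb1, the differences were −0.39 in pileup and −0.20 in background, but the peaks chosen there did not overlap in all 4 libraries. At Zhx2, the gene after it, whose chosen peaks did overlap, they were −0.42 and −0.36. Whether the number of DNA copies differs along the stretch was not tested, so more open chromatin and more DNA cannot be told apart at these promoters. Another neighbourhood lay on chromosome 2 next to the stretch that the rule leaves out, where 11 of 17 ranked genes from Fam227b to Stard7 gained rank. Its start at Fam227b was also set after the values were seen. Some of its genes share peaks, as the 6 gaining genes from Itpripl1 to Stard7 lie on 4 sets of peaks. Slc27a2, a fatty acid transporter in this neighbourhood, ranked at 36.1 and 22.4 in WT but at 65.4 and 64.8 in K20R, with a background difference of 0.86. By fold the difference of Slc27a2 was 5.21 points instead of 35.9. The number of DNA copies was not tested there either.

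**Figure D5:**
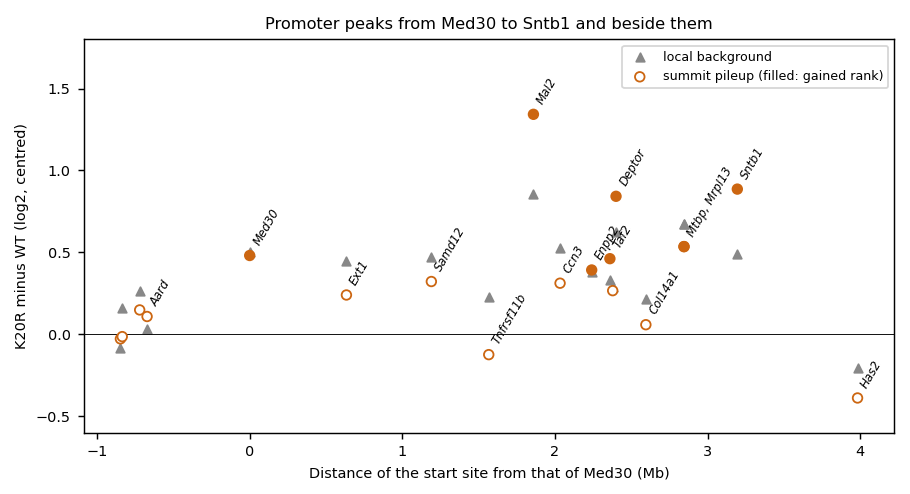
Difference between K20R and WT in summit pileup (circles, filled where the promoter gained rank) and in local background (triangles) at ranked promoters, in centred log2 units (y axis), against the distance of the TSS from that of Med30 in Mb (x axis). From Med30 to Sntb1 all 14 background values lie above 0, between 0.21 and 0.86, and at Has2, where the chosen peaks differ between libraries, both values lie below 0. Before Med30 the background values shown lie between −0.08 and 0.26.

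Distal regions around the members, meaning merged peaks that do not reach within 1000 bp of any protein-coding TSS, were counted within 50 kb of the TSS. There were 5593 such regions near members. Of these, 616 (11.0%) had a peak in both WT libraries and in neither K20R library, and 211 (3.77%) the reverse, against 11.1% and 3.67% near all ranked promoters. Of the 2305 distal regions with a peak in all 4 libraries, 23.4% gained at least 10 points in rank among such regions with both K20R libraries above both WT libraries, and 20.5% lost as much, against 23.6% and 21.2% near all ranked promoters. Within 50 kb the shares near the members were thus close to those near all ranked promoters. Within 10 kb, 19.4% of 464 regions gained and 25.0% lost rank, against 21.4% and 20.4% near all ranked promoters. There 13.0% of 1092 regions were WT-restricted and 2.75% K20R-restricted, against 10.6% and 3.47%. The lists lack more of their peak numbers in WT (51.7% and 50.5% listed) than in K20R (58.6% and 60.8%), and the part of this in the restricted shares was not tested.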

How the data were processed

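ATAC-seq peak lists of 2 WT and 2 CTCF-K20R libraries were used, with groups and replicate numbers from the labels. The authors trimmed reads, aligned them to mm10 with Bowtie2, filtered them and called peaks with MACS2, 1 list per library. In the deposited lists the authors give for each peak a score, a ratio (fold enrichment of the summit over the local background), a −log10 p and a −log10 q. The score and the q were not ranked. Replicates of a number were not paired. Gaps in the peak numbers show that the lists hold 51.7% and 50.5% of the numbers in WT and 58.6% and 60.8% in K20R, by a rule not given in the sources used here, so a missing peak may have been called. Read totals were not used, and the 4 lists hold 51823 to 66703 peaks.

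Genes and start sites came from the GENCODE vM21 basic annotation (gene 5′ end), and all sequences from GRCm38.p6, the same build. Left out were chr8:61927660-112046551 and chr2:127308572-131210774. Pileups were recovered as the whole number that gives the deposited fold and −log10 p (largest misfit 0.002), and log2 values plus 1 were centred per library. The rule and the recovery were checked on simulated lists. Python 3.11.15, pandas 2.3.3 and scipy 1.17.1 were used. Named genes are the 16 largest differences, the 5 highest K20R ranks, 3 genes on each side of the threshold, up to 3 genes per list and genes the study names, and others in the text were chosen after their values were seen. The members, the lists and the motifs were chosen with earlier results of these data known. No test between genotypes was run, since the ranks chose the members.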

Additional observations from a re-analysis of the deposited data

How the results depend on the processing

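The number of promoters that gained rank stayed between 1190 and 1461 when ranks came from the fold or from the pileup, with summits required within 1 kb, with peaks within 500 bp, with any protein-coding start, with a −log10 q of at least 5, with the nearest summit, with 1 gene per shared peak or with only genes on the same peak in all libraries (the last added after seeing the data). It was 2268 with at least 5 points and 237 with at least 20 points (18.1% of the members). Leaving out 1 library at a time gave 1636 to 1932 promoters, kept 78.0% to 84.7% of the members and gave a median difference of 14.1 to 15.2 points. The percentile within all peaks of a list, which is compressed among the strong promoter peaks, gave 368 promoters, kept 14.6% of the members and gave a median difference of 4.52 points. Ranking by fold kept 57.8% of the members and ranking by pileup kept 69.0%, so similar counts did not mean the same promoters. Only genes with no missing peak number beside their peaks, an alternative added after seeing the data that leaves 2349 genes, gave 288 promoters and 15.9% of the members. Only 221 members were among the genes left, and 208 of these gained rank. Near the members there were 142 WT-restricted (13.0%, against 10.6% near all ranked promoters) and 30 K20R-restricted distal regions (2.75%, against 3.47%) within 10 kb, where fewer regions lie. Counting only peaks whose −log10 q reached 5, there were 217 (3.88%, against 4.08%) and 49 (0.876%, against 0.992%) of the same 5593 regions within 50 kb.

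Of 1803 values of named genes under the alternatives, 226 moved by more than the spread between replicates, of which 100 by the percentile, 70 by fold and 38 by pileup, and 10 more changed sign. By fold these were Dppa5a (−3.36) and Atp5a1 (−0.52), by any start Serbp1 (−4.88), Usp7 (−17.0) and Prdm1 (−17.0), by the nearest summit Prdm1 (−16.9) and Kcnmb4 (−1.81), and by pileup Mesp1 (−5.63), Epha1 (−4.27) and Kcna5 (−1.40). The cause was not tested. No paired analysis was possible because the results come from no test. With 2 libraries per genotype, an exact test could not go below a p of 0.333, and the depth of the reads is not known from the lists.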
